A study of Mus musculus with 354 samples.

Results

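AU8052 is 1 of 45 strains of the Collaborative Cross, a panel of inbred mice bred from several founder strains. Its liver RNA, like that of the other strains, was profiled with and without tolvaptan, a vasopressin receptor antagonist. The description concerns its liver without the drug: the 3 arrays labelled Control (animals 351, 352 and 354), of 354 arrays in all, set against the 176 Control arrays of the other 44 strains, with every other strain counted once by its mean. All animals were male, 8 to 10 weeks old and fasted for about 18 h, each array holds the liver of 1 animal, and samples were taken 24 h after treatment. The labels give the strain by name only and not the founder origin of its chromosomes. The strain was chosen by the gene differences of its Control arrays, so its difference under Control is a description and carries no test. The same difference was then tested in animals that the choice did not use, the 4 tolvaptan arrays of AU8052 (animals 355, 356, 357 and 358) against the 171 tolvaptan arrays of the other 44 strains. These 4 animals carry the drug as well as the strain, and so do the strains they were compared with.

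The laboratory mouse liver is mostly hepatocytes, which make plasma proteins and sterols, oxidise fatty acids and clear drugs, together with Kupffer cells, the resident macrophages of the liver sinusoids, which take up particles and present antigen. Strains of the panel carry different founder versions of the same gene, so a transcript may stand at one level in some strains and at another level in the rest. Major histocompatibility complex (MHC) class II molecules pair an alpha with a beta chain, hold peptides for T cells, and are made by macrophages, dendritic cells and B cells but hardly by hepatocytes.

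The values are log2 intensities after robust multi-array averaging (RMA), so a difference of 1 is a doubling of intensity. For scale, the median over all probe sets of an array averaged 2.89 and ranged from 2.81 to 3.02, and values near it are close to background. As a check of the strain labels, the 500 probe sets that best separate strains were used to set every array beside the median of the other arrays of the same strain, by Pearson correlation. For 34 arrays from 19 strains the correlation did not exceed 0.376, while no other array fell under 0.646. They were kept among the other strains, 27 under Control and 7 under tolvaptan. Leaving them out gave 391 genes with a Control difference of at least 1 in place of 398. It gave 1244 calls in the tolvaptan arrays in place of 1127. Each of the 117 called genes of the named set, most of them picked by rule, was still called. Leaving out the 19 strains of these arrays altogether lost 12 of the 117. None of the 7 AU8052 arrays was among them, with correlations from 0.91 to 0.95 to its own strain and at most 0.41 to any other. The AU8052 arrays were scanned on 2 of 6 scan dates, animals 354 and 358 on scan 1, which holds every strain, and the other 5 on scan 4, which holds 8 other strains under Control and 7 under tolvaptan. The 12 hepatocyte markers tested averaged 11.73 to 11.85 in the 3 Control arrays, within the range of 11.46 to 11.89 of the other strain means. In bulk tissue, fewer cells of a type and less RNA per cell cannot be told apart.

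Since the MHC class II beta chain H2-Eb1 and its alpha chain neighbour H2-Aa were both high in AU8052, the sequence before their start sites is shown. Both genes lie on chromosome 17, and each sequence is the 250 bases before the annotated start, 5′ to 3′ on the strand of the gene, from RefSeq (GRCm38.p6). This is the C57BL/6J reference and not the sequence of AU8052. Capitals mark CTGATTGG, the form of the Y box, a promoter element of MHC class II genes bound by NF-Y, that was searched on both strands. It is shown to locate the shared element that these promoters are known for.
H2-Eb1 (chr17:34305617-34305866, plus strand): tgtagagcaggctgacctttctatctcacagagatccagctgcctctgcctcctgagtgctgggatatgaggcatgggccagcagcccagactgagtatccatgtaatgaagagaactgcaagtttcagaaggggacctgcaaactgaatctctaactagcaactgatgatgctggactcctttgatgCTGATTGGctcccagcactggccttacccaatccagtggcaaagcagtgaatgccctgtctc
H2-Aa (chr17:34287824-34288073, minus strand): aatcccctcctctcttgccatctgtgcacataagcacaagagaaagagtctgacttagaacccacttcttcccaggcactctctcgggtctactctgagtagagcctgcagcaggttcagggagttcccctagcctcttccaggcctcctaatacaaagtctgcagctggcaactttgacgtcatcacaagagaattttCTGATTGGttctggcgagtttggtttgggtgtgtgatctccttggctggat
The element begins 62 bases before the start in H2-Eb1 and 51 bases before it in H2-Aa. Of 32851 promoters of the same length, 3.83% hold these 8 letters, and of the 8 listed MHC class II genes with a promoter in the RefSeq set, 3 do, the third being H2-Oa. A match is a description of the letters and not a measured binding site.

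The first comparison asked which transcripts stand at another level in the AU8052 Control liver than in the rest of the panel. The largest positive differences were in Fam107a, an actin-binding protein, H2-Bl, an MHC class I gene, the drug-inducible cytochrome P450 Cyp2b10 and the glutathione transferase Gstp3, which were 31.0-fold, 25.8-fold, 21.8-fold and 18.5-fold above the mean of the other strains. The largest negative ones were in the arachidonic acid epoxygenase Cyp2c23, the siderophore-binding protein Lcn2, the iron-sulfur cluster assembly factor Isca1 and the cystine transporter subunit Slc3a1. Of 14125 genes, 398 (2.82%) had a difference of at least 1, 184 higher (1.3%) and 214 lower (1.52%). In 395 (2.8%) all 3 arrays were on that side of the mean of the other strains, 183 higher (1.3%) and 212 lower (1.5%). At the limit of 1, Il1rap lay just inside at 1.0011 and Htra3 just outside at -0.9997. All 395 passed the filter on dim genes also without the AU8052 arrays.

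In the tolvaptan arrays limma called 1127 of 14125 genes (7.98%) at adjusted p under 0.05, 571 higher (4.04%) and 556 lower (3.94%), and 324 (2.29%) had a difference of at least 1 as well. Of the 395 genes of the Control description, 387 had the same sign in the tolvaptan animals and 290 (73.4%) were called with that sign, 136 higher and 154 lower. None was called with the opposite sign, and 8 had the opposite sign without a call. Their median size was 1.38 in the Control arrays, which chose them, and 1.24 in the tolvaptan arrays, counted along the Control sign. Of the 30 genes with the largest differences, 28 were called, and the exceptions were Lcn2 and Sqle. All but Sqle, 29 of the 30, had the same sign within scan 1 and within scan 4 in both treatments, and 27 of the 28 were also called within scan 4 alone, Clca3a1 being the exception (adjusted p = 0.161, limma). Without animal 357 the total of 1127 calls was 719.

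**Figure D1:**
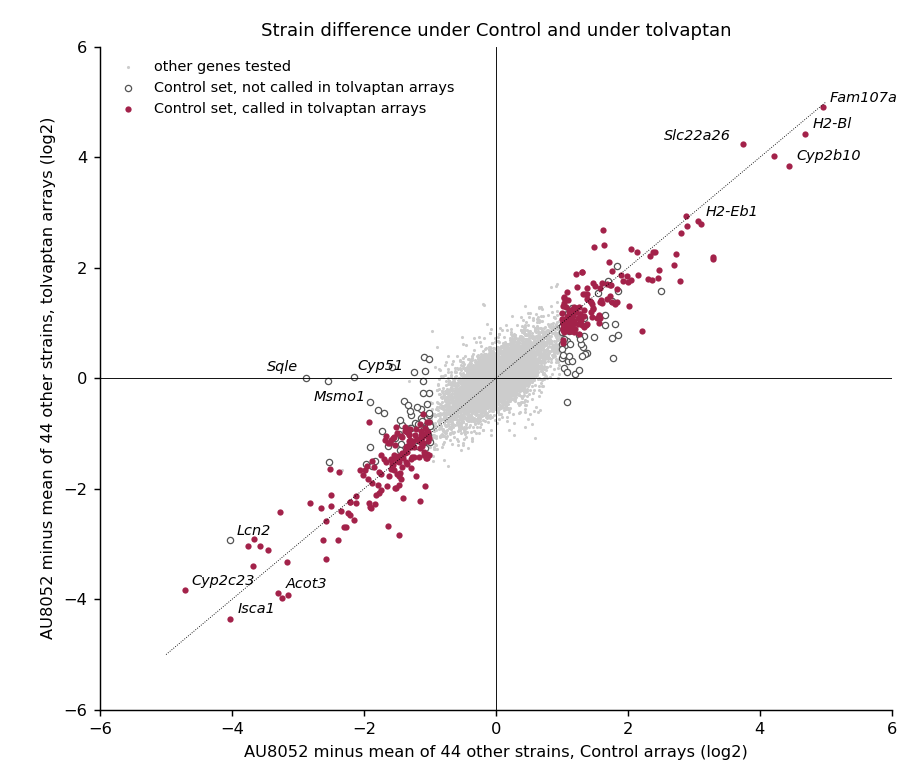
Fitted difference of AU8052 from the mean of the 44 other strains, in log2 units, in the Control arrays (horizontal axis) and in the tolvaptan arrays (vertical axis), for 14125 genes. Filled points are the 290 genes of the Control description that were called in the tolvaptan arrays, open points those that were not, and the dotted line marks equal differences. Most points follow the line, while Sqle, Msmo1 and Cyp51 lie near 0 on the vertical axis.

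Those calls compare AU8052 with the spread between animals of a strain. Set against the spread between the 44 other strain means, 740 of 14125 genes had an unadjusted p under 0.05 by limma. That is near the number expected at this limit for any strain drawn from the same spread. It does not say whether the differences between strains are real. After adjustment 25 genes were called (0.177%), 15 higher and 10 lower, all of them among the 1127. They include Slc22a26 and Sdk2 among the rises, Khdrbs3 and Bicd2 among the falls, and 13 genes of the Control description. By the number of genes called in the tolvaptan arrays AU8052 ranked 13th of 45 strains, with a median of 885 and a range of 191 to 4656. By genes called with a difference of at least 1 it ranked 9th, with 324 against a median of 217.

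Slc22a26 is a member of the SLC22 family of organic anion transporters, and in the AU8052 Control arrays it was 6.63, 6.97 and 7.06. The 44 other strain means ran from 2.26 through a median of 2.70 to 4.95, so each AU8052 array lay above every other strain mean. Single arrays of the other strains were not compared. In the tolvaptan arrays Slc22a26 was 7.76, 7.45, 7.30 and 7.20 against 2.22, 2.72 and 5.80 for the lowest, median and highest other strain mean. Each array again lay above all of these means, and the difference was 4.25 ± 0.38 (SE, adjusted p = 1.93e-17, limma). Slc22a30, a family member that the tested gene Slc22a27 separates from it on chromosome 19, went the other way. It was 5.15, 4.97 and 4.03 under Control, where 1 other strain was lower, at 4.63, and all the rest were at 6.24 or more. In the tolvaptan arrays it was 5.31, 5.67, 4.93 and 5.27, against a median of 8.18, with a difference of -3.03 ± 0.34 (SE, adjusted p = 3.24e-12, limma). Slc22a27 itself differed by 0.38 under Control and 0.19 under tolvaptan (adjusted p = 0.724, limma).

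Fam107a was 8.85, 8.28 and 9.11 in the Control arrays. The other strain means had a median of 3.01, near background, and a highest value of 9.0, so that AU8052 shared its level with a few strains. Of the 44, 4 lay within 1 of its mean, and the widest gap between neighbouring strains, from 5.13 to 6.75, left 9 strains above it, AU8052 among them, and 36 below. The 4 tolvaptan arrays were 9.09, 6.72, 9.38 and 7.62, a wider spread than under Control, and the difference was 4.91 ± 0.66 (SE, adjusted p = 4.54e-09, limma), in the same direction on all 3 of its probe sets.

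H2-Bl was 9.60, 9.57 and 9.27 under Control, above the highest other strain mean of 8.97, while the median strain was at 5.05. The 4 tolvaptan values were 8.29, 8.96, 9.41 and 9.76, which overlapped the highest other strain means at up to 8.80, with a difference of 4.43 ± 0.61 (SE, adjusted p = 1.01e-08, limma). H2-T23, which encodes the MHC class I molecule Qa-1, was 4.78, 5.88 and 4.91 under Control against a median of 2.79 and a highest other mean of 4.94. Under tolvaptan its difference was 2.28 ± 0.22 (SE, adjusted p = 6.18e-16, limma). MHC class I genes are near-identical copies of each other, so a probe set may take signal from several of them, and the 2 genes had 1 probe set each. These were the 2 called of 12 tested genes of the MHC class I list, whose median differences were 0.07 and 0.17.

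Among genes of drug handling, Cyp2b10, a cytochrome P450 that activators of the receptor CAR induce, was 11.29, 10.28 and 11.43 under Control. The other strains ran from 2.96 through 6.54 to 11.48, and AU8052 ranked 3rd of 45. Under tolvaptan it was 10.48, 8.45, 11.13 and 9.83, the 4th highest of 45, with a difference of 3.84 ± 0.81 (SE, adjusted p = 0.000288, limma). Its neighbour Cyp2b13 differed by -0.12 under Control and -0.31 under tolvaptan (adjusted p = 0.641, limma). The probe set of Cyp2b10 belongs to the kind that Affymetrix marks as matching several transcripts. Gstp3, a glutathione transferase of the pi class, was 11.37, 11.97 and 11.85, against a median of 7.31. It shared this level with 1 other strain within 1 of it in each treatment, and under tolvaptan its arrays at 11.88, 12.04, 11.46 and 11.99 gave a difference of 4.02 ± 0.39 (SE, adjusted p = 1.72e-15, limma). Gstp1, the next tested gene on the chromosome, differed by 0.03 and -0.14. Ugt3a2, a UDP-glycosyltransferase, was 10.94 to 11.41 under Control, but ranked 14th, because 19 strains lay at or below 7.55 and the others, AU8052 among them, at or above 8.85.

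Cyp2c23 was 4.08, 5.05 and 4.47 under Control, against 4.56, 10.18 and 11.55 for the lowest, median and highest other strain. Its tolvaptan arrays were 6.71, 5.55, 4.49 and 4.84, and the difference was -3.84 ± 0.75 (SE, adjusted p = 7.42e-05, limma). There 8 other strains lay within 1 of AU8052. Of the 32 tested genes of the cytochrome P450 list, on which Cyp2c23 does not stand, 3 were called higher and 9 lower (37.5%, against 7.98% of all genes). The median difference of this list was -0.01 under Control and -0.03 under tolvaptan. After Cyp2b10 its largest called members were Cyp4a10, Cyp2j6 and Cyp2c37, all lower, with tolvaptan differences of -2.84 ± 0.41, -2.58 ± 0.31 and -1.76 ± 0.52 (SE). Cyp2j6, an epoxygenase of the CYP2J family, was 4.10, 3.22 and 2.84 under Control against a median of 6.14. Cyp2c37 lost its call without animal 357 (adjusted p = 0.122, limma) and within scan 4 alone (0.402). Cyp3a11, the main drug-metabolising P450 of the mouse liver, differed by 0.16 and 0.03 (adjusted p = 0.962, limma), while Cyp3a13, of the same subfamily, differed by 1.14 and 0.97 and was called (adjusted p = 0.0342, limma).

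**Figure D2:**
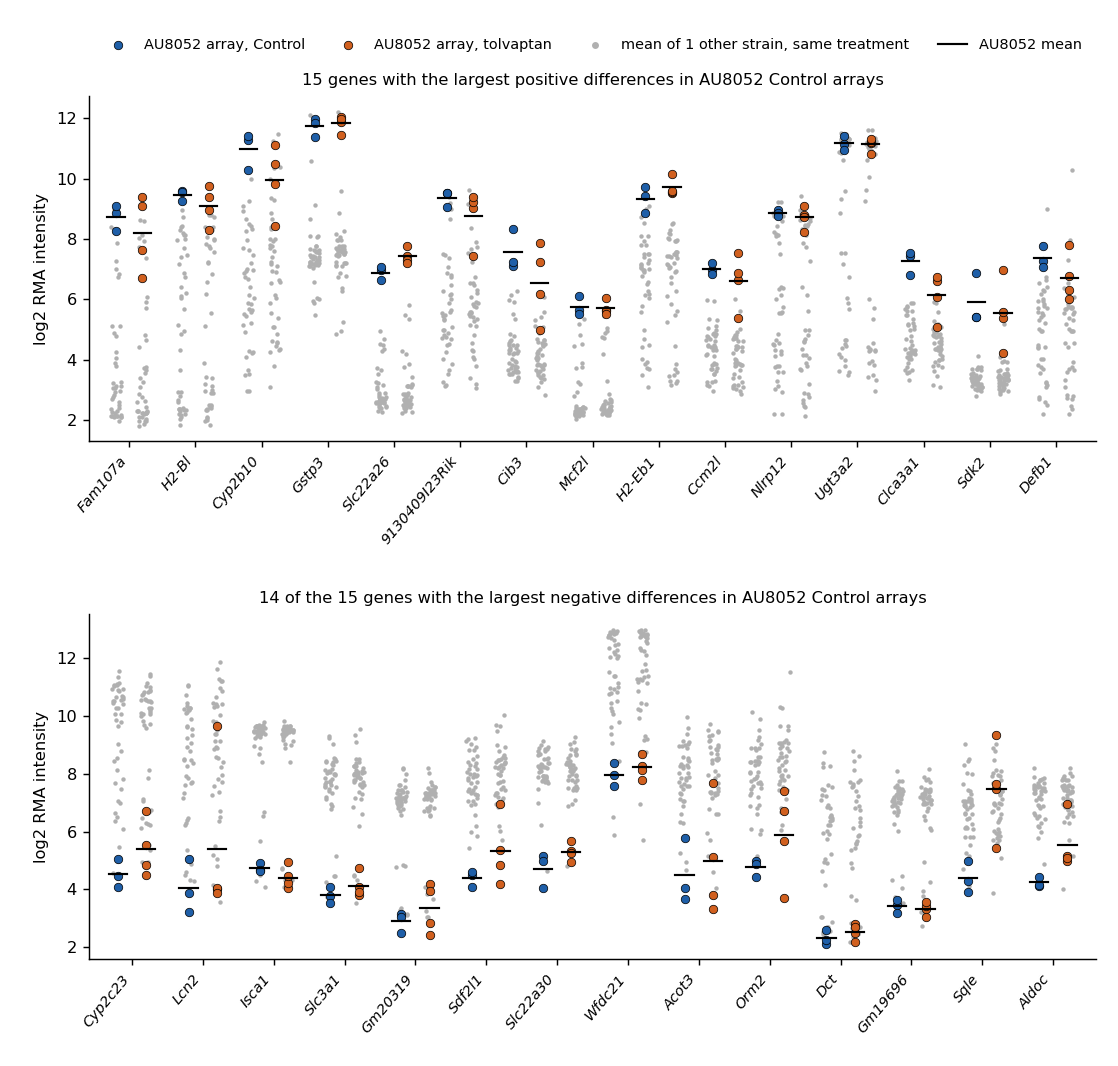
Log2 intensity of the 15 genes with the largest positive and 14 of the 15 with the largest negative differences in AU8052 Control arrays, ordered by that difference. Filled points are single AU8052 arrays (3 Control, 4 tolvaptan), bars their means, and grey points the means of the 44 other strains under the same treatment. Isca1 splits the strains into a large group near 9.47 and a small one that holds AU8052, and Lcn2 is high in 1 tolvaptan animal. Sqle is low in the Control arrays, and 1 of the 4 tolvaptan arrays, that of animal 358, also lies below the median of the other strains.

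Isca1, needed for the assembly of mitochondrial iron-sulfur clusters, was low in AU8052 and a few other strains. In the AU8052 arrays it was 4.92, 4.67 and 4.63 under Control and 4.03, 4.20, 4.95 and 4.45 under tolvaptan. The median of the other strains was 9.47 in both treatments. Under tolvaptan no strain mean lay between 4.76 and 8.41, with 6 strains, AU8052 among them, below and 39 above. The difference there was -4.35 ± 0.14 (SE, adjusted p = 2.25e-59, limma), on the 1 probe set the array has for it. A low and a high level were also seen for Slc3a1, the heavy subunit of the transporter of cystine and basic amino acids, at 4.08, 3.76 and 3.54 under Control and 3.81 to 4.72 under tolvaptan, against medians of 7.77 and 7.88. There too 6 strains lay below the widest gap and 39 above it in both treatments. Gm20319 and Gm19696, transcripts with no assigned function here, were at 2.49 to 3.15 and 3.18 to 3.64 under Control, against medians of 7.14 and 7.07, with tolvaptan differences of -3.39 ± 0.22 and -3.93 ± 0.44 (SE).

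Among the other genes with large negative differences, Sdf2l1, a partner of chaperones in the endoplasmic reticulum, was 4.50, 4.58 and 4.09 under Control, below every other strain mean (lowest 5.44, median 7.84). The tolvaptan animals had 6.96, 5.36, 4.84 and 4.18, again the lowest of 45 strain means, with a difference of -2.91 ± 0.49 (SE, adjusted p = 3.08e-06, limma). It was the 1 called of 30 tested genes of the list for stress of the endoplasmic reticulum, whose medians were -0.28 and -0.15. The glycolytic aldolase Aldoc was 4.11, 4.44 and 4.16 under Control, with a lowest other mean of 4.37, and its tolvaptan difference was -2.25 ± 0.39 (SE, adjusted p = 7.1e-06, limma). Dct, an enzyme of melanin synthesis, was near background at 2.12 to 2.57. Its tolvaptan difference was -3.32 ± 0.57 (SE), and 12 other strains lay within 1 of AU8052 under Control. Wfdc21, of the whey acidic protein family, stood at 7.59 to 8.37 against a median of 11.78, with 2 other strains lower still.

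Of the other genes with large positive differences, Cib3, of the calcium and integrin binding family, Ccm2l, a paralog of the vascular adaptor Ccm2, and the adhesion molecule Sdk2 ranked 1st of 45 in both treatments. Sdk2 was 5.42, 5.40 and 6.89 under Control against a highest other mean of 4.13. Under tolvaptan it was 5.39, 4.22, 6.98 and 5.57 against a highest other mean of 5.18, with a difference of 2.26 ± 0.22 (SE, adjusted p = 3.41e-15, limma). The Control arrays of Cib3, at 7.12, 8.32 and 7.25, all lay above the highest other strain mean of 6.26. Under tolvaptan animal 355, at 4.97, lay below the highest other strain mean. Mcf2l, a guanine nucleotide exchange factor, was 5.52 to 6.10 under Control and 5.52 to 6.04 under tolvaptan, against medians of 2.37 and 2.38 near background, and the highest other mean under Control was 5.56. Both tested neighbours of Mcf2l were called as well, the phospholipid flippase Atp11a at 1.67 and the coagulation factor F7 at 0.48. Nlrp12, an inflammasome-family regulator, the beta-defensin Defb1, Clca3a1 and 9130409I23Rik had tolvaptan differences of 2.94, 2.06, 1.76 and 2.15. Defb1, Clca3a1 and 9130409I23Rik lost their calls without animal 358 (adjusted p = 0.0861, 0.153 and 0.12, limma), as did Ugt3a2 (0.0549), and Defb1 did without animal 357 (0.0999).

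In all, 176 genes (1.25%) were called and lay past the range of the 44 other strain means on the same side in both treatments. The 10 with the largest differences outside the first 30 were 5 falls, in Khdrbs3, Dclk3, Gda, Bicd2 and Lad1, and 5 rises, in H2-T23, H4c9, Tmem268, Pla2g7 and Tlcd2. The RNA-binding protein Khdrbs3 was 2.88, 3.67 and 4.30 under Control against a median of 6.44. Its tolvaptan arrays were 2.28, 3.55, 3.30 and 3.52, below the lowest other mean of 4.06, with a difference of -3.27 ± 0.23 (SE, adjusted p = 2.85e-24, limma). Bicd2, an adaptor of the dynein motor, had 5 probe sets, all with the same sign and 3 called, and its tolvaptan difference was -2.12 ± 0.18 (SE). The guanine deaminase Gda was 5.23, 5.51 and 4.85 under Control against a median of 7.36. Tlcd2 was 10.28, 10.30 and 10.24 under Control and 10.29 to 10.48 under tolvaptan, above all other strain means, of which the highest were 9.70 and 9.54. The platelet-activating factor acetylhydrolase Pla2g7, an enzyme that macrophages make, was 6.30, 6.85 and 6.65 against a median of 4.82, with a tolvaptan difference of 1.86 ± 0.31 (SE, adjusted p = 2.51e-06, limma).

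Among the 40 genes of these sets, 37 had a place in the RefSeq order of protein-coding genes, and no 2 of them were next to each other. Of their 73 tested neighbours, 8 were called (11%, near the 7.98% of all genes). In 4 cases the neighbour moved the same way, namely Acot1 beside Acot3, H2-Aa beside H2-Eb1, and Atp11a and F7 beside Mcf2l. In the other 4, Ppm1b beside Slc3a1, Heatr6 beside Wfdc21, Akna beside Orm2 and Ephx1 beside 9130409I23Rik, the neighbour went the opposite way.

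MHC class II genes were high in AU8052. Of 12 tested, 6 were called higher and 1 lower (58.3%, against 7.98% of all genes), with a median difference of 0.87 under Control and 0.88 under tolvaptan, against 0.011 and -0.0049 over all genes. H2-Eb1, the beta chain of I-E, was 8.87, 9.42 and 9.72 under Control, against 3.10, 6.97 and 9.09 for the lowest, median and highest other strain. With the drug it was 9.54, 10.15, 9.57 and 9.59, all above the highest other mean of 8.54, and the difference was 2.84 ± 0.46 (SE, adjusted p = 1.09e-06, limma). H2-Aa, the alpha chain of I-A, was 8.11, 8.08 and 8.87 and then 8.21, 8.25, 8.13 and 8.28, above the highest other means of 7.76 and 7.82 in both treatments, with a difference of 1.75 ± 0.42 (SE, adjusted p = 0.002, limma). Cd74, the invariant chain that escorts class II molecules, was 7.46, 7.33 and 7.87 against a median of 6.10, with a difference of 1.37 ± 0.31 (SE, adjusted p = 0.000715, limma).

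The peptide-loading chaperone H2-DMa differed by 1.19, the protease Ctss, which trims the invariant chain, by 1.17, and the class II transactivator Ciita by 0.57 at levels near background, all called. H2-Ab1, the beta chain of I-A, was 9.45, 9.71 and 9.91 against a median of 7.65 under Control, but its tolvaptan difference of 1.39 ± 0.58 (SE) did not pass (adjusted p = 0.138, limma), though within scan 4 alone the difference was 2.08 (adjusted p = 0.012, limma). It is on the list and was named after its values were seen. H2-Ea, the alpha chain of I-E, was the 1 called lower, at 4.72, 4.82 and 4.74 under Control. The median of the other strains was close, at 4.92, and the highest was 8.63, so AU8052 lay in the lower part of a range in which some strains are high. Its difference of -1.25 ± 0.28 (SE, adjusted p = 0.000699, limma) was taken against the mean of those strains and was not called without the scan term (adjusted p = 0.145, limma). Leaving out 1 tolvaptan animal at a time gave 6 or 7 called members.

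**Figure D3:**
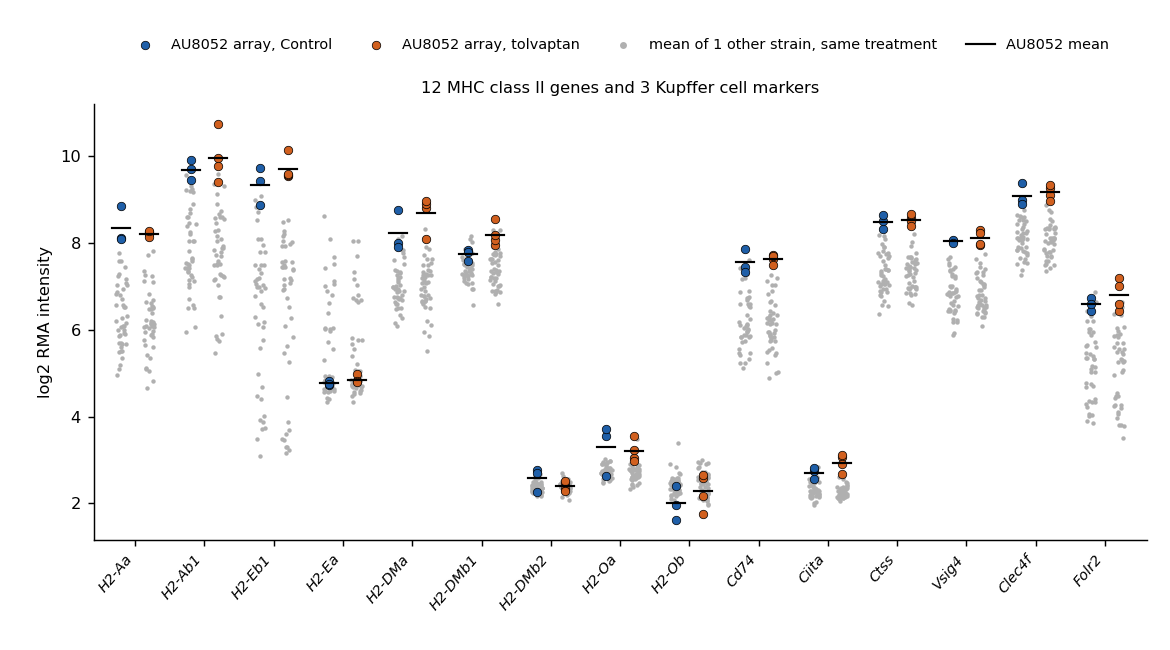
Log2 intensity of the 12 MHC class II genes tested and of the Kupffer cell markers Vsig4, Clec4f and Folr2. Filled points are single AU8052 arrays, bars their means, and grey points the means of the 44 other strains under the same treatment. H2-Aa and H2-Eb1 lie above nearly all grey points in both treatments, and H2-Ea lies in the dense lower group.

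Markers of Kupffer cells and macrophages were high in the same arrays. Of 17 tested, 8 were called higher and none lower (47.1%, against 7.98% of all genes), and the median differences were 0.72 and 0.75. Averaged over the 17, the level was 6.79, 6.97 and 7.22 in the 3 Control arrays and 7.03 to 7.16 in the 4 tolvaptan arrays. The other strain means ran from 5.75 to 6.97 and from 5.74 to 6.88, so the arrays overlapped the highest other mean under Control alone. AU8052 ranked 1st of 45 by its mean in both treatments, as it did by the mean over the MHC class II genes. It also ranked 1st in both by the average of complement and coagulation genes and by that of periportal markers. Vsig4, the complement receptor of Kupffer cells, was 8.06, 8.07 and 8.00 under Control and 7.94 to 8.30 under tolvaptan, above the highest other means of 7.67 and 7.76, with a difference of 1.05 ± 0.26 (SE, adjusted p = 0.00316, limma). Clec4f, a lectin made by Kupffer cells alone in the mouse liver, differed by 0.90 ± 0.21 (SE, adjusted p = 0.00164, limma) and the folate receptor Folr2 by 1.16 ± 0.30 (SE, adjusted p = 0.00472, limma). Clec4f, Folr2 and C1qa lost their calls without animal 358 (adjusted p = 0.0696, 0.143 and 0.156), and the count for the list was then 3, against 5 without animal 356. Whether the number of Kupffer cells has a part in the higher class II signal was not tested.

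Few markers of other immune cells were called. None of 13 tested markers of T and NK cells and none of 12 of neutrophils was called, with median differences of 0.08 and 0.07 for T and NK cells and of -0.03 in both treatments for neutrophils. In limma 1 marker of each list had an unadjusted p under 0.05, Gzma and Lcn2. Of 9 markers of B and plasma cells, the immunoglobulin joining chain Jchain was called, at 1.57 ± 0.22 (SE, adjusted p = 7.51e-09, limma), from 4.21, 4.37, 4.97 and 3.94 against a median of 2.60. Averaged over the 9, AU8052 ranked 9th of 45 strains under Control. Under tolvaptan it ranked 1st, at 3.87 against a highest other mean of 3.84. By the average of T and NK cell markers it ranked 5th and 13th, and by that of neutrophil markers 40th in both treatments. Lyve1, a hyaluronan receptor, was the 1 called of 16 markers of sinusoidal endothelium, at 1.34 ± 0.33 (SE, adjusted p = 0.0025, limma), while the median of that list was -0.12.

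Among plasma protein genes, those of complement and coagulation differed mostly upward. Of 37 tested, 11 were called higher and 1 lower (32.4%, against 7.98% of all genes), with medians of 0.16 and 0.21. The 3 chains of C1q, the recognition protein of the classical pathway, C1qa, C1qb and C1qc, were among the called genes, at 0.82, 0.70 and 0.99, and are also on the Kupffer cell list. Properdin (Cfp), which stabilises the alternative pathway convertase and is made by myeloid cells, differed by 0.91 ± 0.25 (SE, adjusted p = 0.0102, limma). Of the genes that hepatocytes make, C8a, C9, C1s1, Kng1, F7, F10 and C1ra were called higher, by 0.30 to 0.69, and the mannose-binding lectin Mbl1 lower. The count rested on single animals: it was 3 without animal 358, 6 without animal 356 and 7 without animal 357, and Cfp and C1qa lost their calls without animal 358 (adjusted p = 0.112 and 0.156, limma). C1qb lost its call without any one of the 4 animals (adjusted p from 0.0621 to 0.162).

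Targets of PPAR-alpha, the nuclear receptor that drives fatty acid oxidation in fasting, were low. Of 25 tested, 11 were called lower and none higher (44%, against 7.98% of all genes), and the median difference was -0.36 under Control and -0.57 under tolvaptan. Averaged over the 25, AU8052 was the lowest of the 45 strains in both treatments, at 8.97, 9.17 and 9.34 under Control against 9.35 to 10.24 for the other strain means. The acyl-CoA thioesterase Acot3 was 3.68, 4.03 and 5.79 under Control against a median of 7.96. Under tolvaptan it was 7.70, 5.10, 3.31 and 3.82 against 8.03, so that animal 355 stood near that median and the remaining animals below it. AU8052 shared its low level with a few strains, 3 within 1 of its mean under Control and 5 under tolvaptan. The difference of Acot3 was -3.89 ± 0.69 (SE, adjusted p = 1.03e-05, limma), and its neighbour and paralog Acot1 differed by -2.35 ± 0.45 (SE, adjusted p = 4.85e-05, limma). As near-identical genes, Acot1 and Acot3 may share signal. Cyp4a10, the fatty acid omega-hydroxylase, was 8.77, 10.41 and 11.86 under Control, where only the highest overlapped the other strain means (10.93 to 12.78). That array is of animal 354 in scan 1, where the Control difference was -0.24, against -2.51 in scan 4. Under tolvaptan Cyp4a10 was 10.57, 8.66, 9.72 and 8.22 against a median of 12.11. The tolvaptan difference was -3.71 in scan 1 and -2.57 in scan 4.

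The smaller falls on this list included enzymes of the oxidation itself. Cpt2, the inner-membrane carnitine palmitoyltransferase, was 9.46, 9.76 and 9.67 under Control and 9.39, 9.57, 9.05 and 9.52 under tolvaptan, below the lowest other means of 10.02 and 9.84. Its difference was -1.0 ± 0.14 (SE, adjusted p = 1.56e-08, limma), and with Cyp4a10 it was among the 25 genes past the spread between strains. Cpt2 was named after its values were seen. The receptor itself, Ppara, differed by -0.84 and -0.71, the lipid droplet protein Plin2 by -0.87 and -0.76, the fatty acid binding protein Fabp1 by -0.63 and -0.58, and all 3 were called. The peroxisomal thiolase Acaa1a differed by -0.36 under Control and -1.14 under tolvaptan. Fgf21 and Pdk4, fasting-responsive targets, differed by -1.97 and -1.78 under Control, but by -1.55 and -0.57 without a call under tolvaptan. The count was 5 without animal 357, and Acaa1a lost its call without any one of animals 356, 357 and 358 (adjusted p = 0.0664, 0.0717 and 0.0694, limma). Of fatty acid synthesis genes 2 of 17 were called, both desaturases and both lower (11.8%, near the 7.98% of all genes). Scd1 was 10.57, 9.18 and 8.61 under Control against a median of 11.93, with a tolvaptan difference of -1.64 ± 0.29 (SE), and Fads2 differed by -1.06 ± 0.24 (SE).

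**Figure D4:**
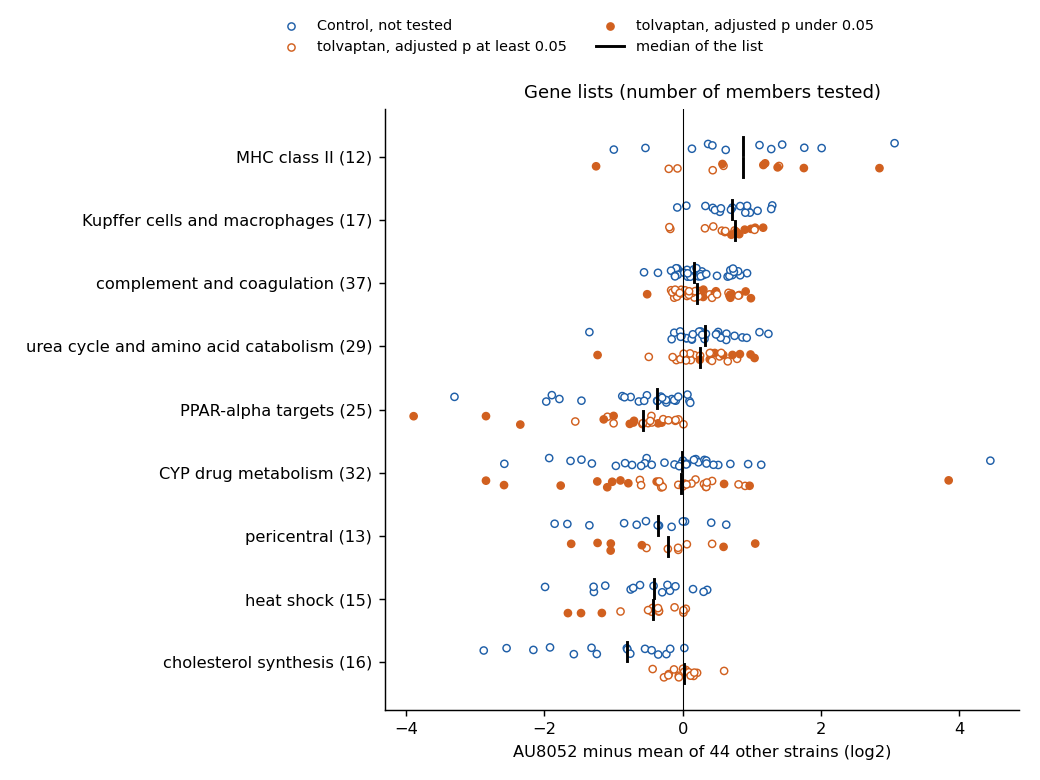
Difference of AU8052 from the mean of the 44 other strains, in log2 units, for each tested member of 9 gene lists, in the Control arrays (blue, not tested) and the tolvaptan arrays (orange, filled where adjusted p was under 0.05). Bars are list medians and the number of members is in brackets. The 2 medians of a list lie close together for MHC class II (0.87 and 0.88) and Kupffer cell markers (0.72 and 0.75) and apart for cholesterol synthesis (-0.80 and 0.01).

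Genes of cholesterol synthesis were low in the Control arrays and, taken over the 4 animals, not in the tolvaptan arrays. Under Control 15 of 16 tested members lay below the mean of the other strains, 7 of them by at least 1, and the median difference was -0.80. In the tolvaptan arrays the median was 0.01, 9 members were positive and 7 negative, and limma called none of the 16, and 0 had an unadjusted p under 0.05. Averaged over the list, the level was 6.83, 6.60 and 6.31 under Control, the 2nd lowest of 45, and 8.72, 7.85, 7.81 and 6.96 under tolvaptan, the 13th highest. Squalene epoxidase (Sqle), which catalyses the first oxygenation on the way to sterols, was 4.99, 3.92 and 4.30 under Control, against 4.11, 6.89 and 9.05 for the lowest, median and highest other strain. Under tolvaptan it was 9.35, 7.48, 7.65 and 5.43 against a median of 6.96, and the difference was 0.01 ± 0.57 (SE, adjusted p = 0.998, limma). No array of one treatment reached the range of the other.

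The methylsterol oxidase Msmo1 was 6.68, 6.06 and 5.72 under Control and 10.33, 8.65, 9.21 and 7.30 under tolvaptan. The lanosterol demethylase Cyp51 was 6.20, 5.73 and 4.62 and then 7.90, 8.06, 7.50 and 6.54, and mevalonate decarboxylase (Mvd) was 3.11, 2.96 and 2.66 and then 7.55, 4.13, 4.88 and 3.42. In each of these the 4 tolvaptan arrays lay above the 3 Control arrays, and animal 358 was the lowest of the 4. Msmo1, Cyp51 and Mvd are on the list and were named after their values were seen. The cholesterol carrier Stard4 differed by -1.92 and -0.43, and lanosterol synthase (Lss) by -0.45 and 0.60, neither called (adjusted p = 0.514 and 0.373, limma). The median of the other strains for Sqle was 6.89 under Control and 6.96 under tolvaptan. Because the Control values chose Sqle, the gap between the treatments was not tested.

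These values moved with the scan date in the tolvaptan arrays. In scan 1, which holds animal 358, the difference was -1.47 for Sqle, -1.19 for Msmo1 and -0.64 for Cyp51, with no replicate. In scan 4, which holds the other 3, it was 0.99, 0.94 and 0.84 (adjusted p = 0.218, 0.211 and 0.107, limma), and for Lss it was 1.25 (adjusted p = 0.015, limma). Under Control both scans gave negative differences for Sqle, at -2.10 and -2.82. Animal and scan cannot be told apart in scan 1, which has 1 AU8052 animal per treatment.

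**Figure D5:**
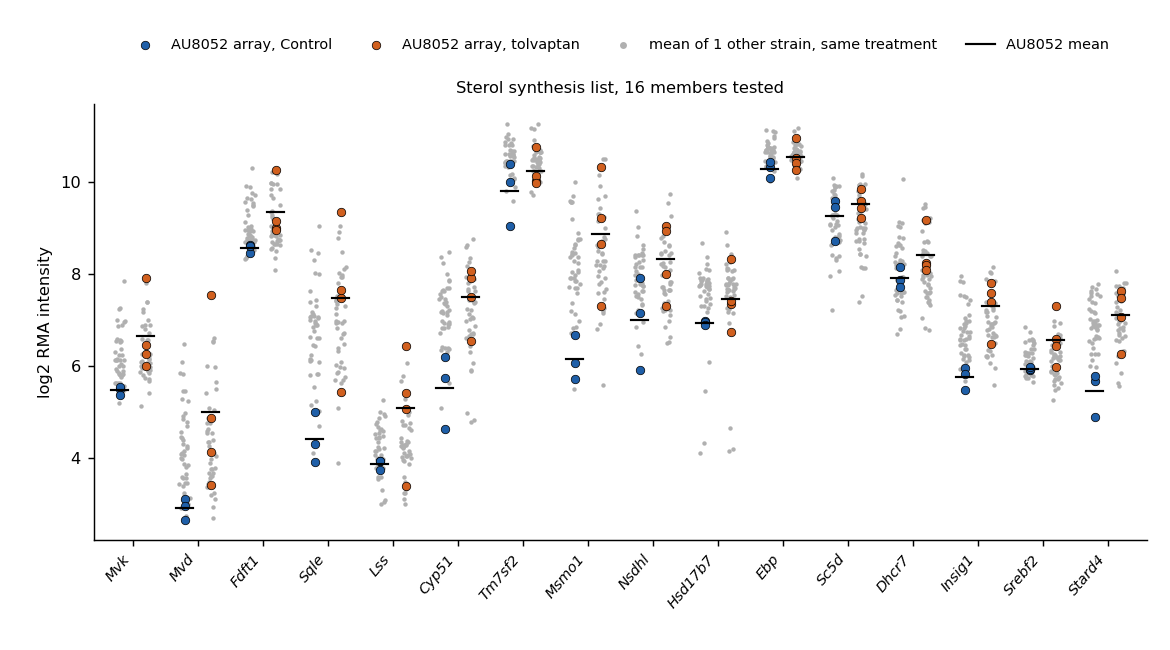
Log2 intensity of the 16 tested genes of the cholesterol synthesis list. Filled points are single AU8052 arrays, bars their means, and grey points the means of the 44 other strains under the same treatment. For Sqle, Msmo1, Cyp51 and Mvd the 3 Control arrays lie at the bottom of the strain range and below the 4 tolvaptan arrays.

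Acute phase genes differed gene by gene. Of 26 tested, 1 was called higher and 1 lower (7.69%, near the 7.98% of all genes), and the medians were -0.03 and -0.01. Lcn2 was 3.21, 3.88 and 5.05 under Control against a median of 8.50 and a lowest other mean of 4.28. Under tolvaptan 3 animals were at 4.01, 4.04 and 3.88 and animal 355 at 9.65, above the other strains' median of 9.02. The difference of -2.93 ± 1.19 (SE) did not pass (adjusted p = 0.122, limma). Orm2, an alpha-1-acid glycoprotein, was 4.41, 4.99 and 4.89 under Control, below every other strain mean. Under tolvaptan it was 7.41, 3.69, 5.68 and 6.71, with a difference of -2.42 ± 0.79 (SE, adjusted p = 0.0378, limma), a call lost without any one of animals 356, 357 and 358 (adjusted p = 0.263, 0.107 and 0.0517). Itih3, an inter-alpha-trypsin inhibitor heavy chain, differed by 0.13 and 0.39. Of the serine protease inhibitor list, Wfdc2 stood at 3.67, 3.86 and 3.54 against a median of 5.91, with a tolvaptan difference of -2.24 ± 0.50 (SE, adjusted p = 0.000782, limma).

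Enzymes of the urea cycle and amino acid breakdown leaned upward, with 8 of 29 called higher and 1 lower (31%, against 7.98% of all genes) and medians of 0.32 and 0.25. Argininosuccinate synthase (Ass1), the rate-limiting enzyme of arginine synthesis, was 12.58, 12.19 and 12.36 under Control and 11.98, 11.79, 12.23 and 12.40 under tolvaptan. The median strain was at 11.62 and 11.53, and the difference was 1.04 ± 0.21 (SE, adjusted p = 0.000122, limma), with 0.54 and no call within scan 4 alone (adjusted p = 0.19, limma). Aldh4a1 and Cth, of proline and cysteine metabolism, differed by 0.98 and 0.83. The call lower was ornithine aminotransferase (Oat), which sits in the hepatocytes around the central vein, at 10.02, 9.53 and 10.24 under Control, below the lowest other mean of 10.27, with a tolvaptan difference of -1.23 ± 0.24 (SE, adjusted p = 7.42e-05, limma). The count was 4 without animal 357 and 5 without animal 358, where Aldh4a1 lost its call (adjusted p = 0.0601, limma).

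Of 13 markers of pericentral hepatocytes, around the central vein, 5 were called lower and 2 higher (53.8%, against 7.98% of all genes), with medians of -0.36 and -0.21, and of 13 markers of periportal hepatocytes 3 were called higher and none lower (23.1%), with medians of 0.33 and 0.39. Besides Oat, the glutamate transporter Slc1a2 was 5.02, 4.39 and 4.81 under Control against a median of 6.58, and 4.66 to 4.90 under tolvaptan, with a difference of -1.61 ± 0.21 (SE, adjusted p = 5.28e-10, limma). The ammonium transporter Rhbg differed by -1.04. The aryl hydrocarbon receptor Ahr, also on the pericentral list, differed by 1.05 ± 0.23 (SE, adjusted p = 0.000659, limma), and the sterol hydroxylase Cyp27a1 was the other one called higher, at 0.59. The pericentral P450 enzymes Cyp2e1 and Cyp1a2 were not called, at 0.03 and 0.0030 under Control and -0.06 and 0.43 under tolvaptan (adjusted p = 0.547 and 0.292, limma). The periportal calls were Ass1, Arg1 and Cps1, all enzymes of the urea cycle and so shared with that list, while Pck1 at -0.23, Cyp2f2 at 0.13, Uroc1 at -0.03 and Hal at 0.56 were not called. Arg1 and Cps1 lost their calls without any one of animals 355, 357 and 358 (adjusted p from 0.0621 to 0.21, limma). Cps1 lost its call without animal 356 as well (adjusted p = 0.0736, limma). Within scan 4 alone neither Arg1 nor Cps1 was called (adjusted p = 0.139 and 0.296, limma).

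A few further genes concern vasopressin signalling and hepatic transport. The vasopressin receptor of hepatocytes, Avpr1a, was 6.82, 6.86 and 6.19 under Control against a median of 6.50. Its differences were 0.02 and -0.04 (adjusted p = 0.978, limma). Whether tolvaptan acts on this receptor subtype was not tested. The bile salt export pump Abcb11 was 9.16, 9.31 and 9.16 against a median of 8.72, and the bile acid uptake transporter Slc10a1 was 11.56, 11.71 and 11.75 against 11.40. Neither passed in the tolvaptan arrays, at 0.18 ± 0.27 and 0.18 ± 0.20 (SE, adjusted p = 0.797 and 0.703, limma). Of the 22 hepatic transporters tested, 4 were called lower and none higher (18.2%, against 7.98% of all genes). They include Slc22a30 at -3.03, the sterol exporter subunit Abcg5 at -0.95 and the efflux pump Abcg2 at -0.78. Abcg5 was at -0.46 and not called within scan 4 alone (adjusted p = 0.117, limma), and Abcg2 was without a call when animal 355 or 357 was left out (adjusted p = 0.195 and 0.0939, limma).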

How the data were processed

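RNA from the median lobe of the liver was hybridised to 1-colour Affymetrix arrays, 1 per animal. The deposited values are log2 intensities that the authors summarised per probe set with RMA in Affymetrix Expression Console, per the submitters' processing notes, and the table holds 42597 probe sets on 354 arrays. RMA shares its normalization over arrays, so their values are not fully independent. Their number, and not a read depth, limits the precision. Groups were taken from the strain and treatment labels.

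Where several probe sets name 1 gene, the one with the largest average intensity across the arrays stands for it, kept if above the array median in at least 4 arrays, which left 14125 of 16671 genes. Of the probe sets, 27691 had 1 symbol, 493 had several and 14376 had none. Within each treatment, limma (3.58.1, R 4.3.3) was fitted with strain and scan date as terms, and AU8052 was contrasted with the mean of the 44 other strain means. P-values were adjusted over all genes (Benjamini-Hochberg), with calls at adjusted p under 0.05. They measure the spread between animals of a strain. Printed levels are deposited values, and differences and ranks are from the fit, except the ranks of list averages, which use the deposited values. In simulated tolvaptan arrays of 14125 genes, 56% of 50 genes changed 1.5-fold, 80% of 50 changed 2-fold and 100% of 50 changed 4-fold were recovered, with 7 false calls. There AU8052 was set to the mean of the other strains for 13925 genes, with noise drawn independently for each gene. The real arrays differ in far more genes, so these rates may not hold for the real calls.

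The strain, the lists and the genes were chosen with earlier results of these data known. Named were the 15 largest positive and 15 largest negative differences in the Control arrays, up to 10 further genes past the range of the other strains in both treatments, up to 4 members of each list called with the sign of the Control arrays (2 with the largest difference where there were none), and Avpr1a, Cyp3a11, Cyp2b10, Abcb11 and Slc10a1. Not every gene that this rule names is reported here. Other list members, and Gzma, were named after their values were seen. Probe sequences were not used here, and a strain variant under a probe was not tested. Several probe sets, among them those of Cyp2b10, Cyp2c23, Acot3, Cyp4a10, H2-Aa and H2-Ab1, are of the kind Affymetrix marks as matching more than 1 transcript. Alternatives changed the scan term, probe set rule, filter, normalization, arrays, model and replicates.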

Additional observations from a re-analysis of the deposited data

Results flagged for a closer look

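The named set holds 144 genes, most of them picked by rule and a few named after their values were seen. An animal was taken to stand apart where its gap to the nearest neighbour, relative to the range, exceeds Dixon's limit for 4 samples. In the 4 tolvaptan arrays of AU8052, 1 animal stood apart from the other 3 for 8 of the 144 genes (5.56%). Chance flags about 1 in 20 groups where genes are independent. These genes are not, so the share cannot say whether chance alone gave it. For H2-Ea and Slc17a2 the gap itself is small. By list average, animal 355 stood above the other 3 for acute phase genes (10.21 against 9.25 to 9.73). It did so too for stress of the endoplasmic reticulum (8.07 against 7.53 to 7.71). For MHC class II genes it lay among them (6.35, with the others at 6.23 to 6.55). What set this animal apart was not tested. Animal 355 stood apart for 4 of the 8. Its Lcn2, the siderophore-binding protein, was 9.65 against 3.88 to 4.04 in the other 3, and its Aldoc, the glycolytic aldolase, was 6.95 against 4.98 to 5.17. Bicd2, the dynein adaptor, was 4.99 in it against 4.41 to 4.48, and the fatty acid hydroxylase Cyp4a12a was 9.23 against 10.16 to 10.19. The median of the other strains under tolvaptan was 9.02 for Lcn2, 7.31 for Aldoc, 6.81 for Bicd2 and 11.04 for Cyp4a12a.

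Animal 356 was high for both chains of I-E, with H2-Eb1 at 10.15 against 9.54 to 9.59 and H2-Ea at 4.99 against 4.79 to 4.82. Animal 358, the 1 of the 4 in scan 1, was low for the MHC class I gene H2-T23, at 4.6 against 5.89 to 6.03, and for the transporter Slc17a2, at 8.87 against 9.03 to 9.04. Whether scan date had a part in the values of animal 358 was not tested.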

How the results depend on the processing

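No paired analysis was possible because the groups share no replicate numbers. With strain as the unit, the number of genes called was 25 in place of 1127, and 13 in place of 290 among the genes of the Control description. The members called were then 0 of the MHC class II list, 0 of the Kupffer cell list, 0 of complement and coagulation, 0 of the urea cycle list, 0 of the pericentral list, 1 of the cytochrome P450 list and 2 of the PPAR-alpha list. That setting tests against the spread of the 44 other strain means instead of animals. In it 740 of 14125 genes had an unadjusted p under 0.05 by limma, near the number expected for any strain drawn from the same spread. Within scan 4 alone, 5 members of the urea cycle list were called.

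Leaving out 1 AU8052 tolvaptan animal at a time gave 719 to 918 calls, and 235 to 276 among the genes of the Control description. For the lists it gave 6 to 7 for MHC class II, 3 to 7 for Kupffer cells, 5 to 10 for PPAR-alpha, 3 to 11 for complement and coagulation, 9 to 12 for cytochrome P450, 4 to 8 for the urea cycle and 6 to 7 for pericentral markers. Leaving out 1 Control animal gave 406 to 446 genes with a difference of at least 1, and 281 to 299 called among the 404 to 438 that then had all arrays on 1 side. With the median of a gene's probe sets, 2 genes turned sign, Xaf1 to 0.89 from -0.79 and Sdha to -0.10 from 0.65, and the cause was not tested. All other settings kept these counts within 1.5 times. Low signal limits genes near the array median.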

Other observations

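Heat shock genes were low in AU8052. Averaged over 15 genes, the level was 6.32 to 6.43 in the Control arrays and 6.31 to 6.65 in the tolvaptan arrays, the lowest of 45 strains in both treatments, where the other strain means began at 6.66 and 6.54. Of the 15, 3 were called lower and none higher (20%, against 7.98% of all genes), the chaperones Hspa1b at -1.66 ± 0.45 and Hspb1 at -1.47 ± 0.36 and the nucleotide exchange factor Hsph1 at -1.17 ± 0.34 (SE, adjusted p = 0.00886, 0.00276 and 0.0139, limma). Hspa1b and Hsph1 lost their calls without animal 357 (adjusted p = 0.0942 and 0.113).

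Proteasome subunits were also lowest of the 45 strains by their average, with 4 of 28 called lower and none higher (14.3%, against 7.98% of all genes). Psmc5, an ATPase of the regulatory particle, was 7.35, 7.52 and 8.12 under Control and 7.82, 7.75, 7.60 and 7.66 under tolvaptan, against a median of 9.21 and 9.23. Its difference was -1.35 ± 0.11 (SE, adjusted p = 3.23e-21, limma), while the median of the list was -0.16.

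Cela2a, a pancreatic elastase, was the 1 called of 12 pancreas markers. It was 4.41, 4.43 and 5.13 under Control and 5.05, 5.15, 6.86 and 6.05 under tolvaptan, above the highest other means of 4.09 and 4.85, and the median of that list was -0.02. Alas2, the erythroid enzyme of heme synthesis, was 5.58, 5.91 and 5.66 against a median of 7.92, with a tolvaptan difference of -1.89 ± 0.30 (SE, adjusted p = 8.07e-07, limma), but -0.29 within scan 4 alone (adjusted p = 0.737).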
